A study of Mus musculus with 4 samples.

Results

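The genes described are those for the proteins of the cytosolic ribosome, measured by bulk RNA sequencing in mouse natural killer (NK) cells, lymphocytes of the innate immune system that can kill tumour cells. They were chosen by name: every protein-coding gene of the mm10 annotation whose symbol is Rpl or Rps followed by a digit, without the kinase genes that begin with Rps6k. This rule gave 88 genes of the 35275 in the deposited table. They were 43 genes of the large subunit, 30 genes of the small subunit, 8 paralogues (Rpl3l, Rpl7l1, Rpl10l, Rpl22l1, Rpl36al, Rpl39l, Rps27l and Rps27rt), 6 genes that carry a pseudogene name although the annotation calls them protein-coding, and Rps19bp1, which encodes a protein that binds a ribosomal protein. The 73 large and small subunit genes are called the subunit genes. NK cells came from spleen, were enriched with a kit and were sorted as cells without CD3 and with NK1.1. There were 4 groups with 1 library each. Irf4-/- injected was from mice labelled as knockouts of the transcription factor gene Irf4 injected intravenously 20 days earlier with B16-F10, a melanoma line from the mouse, and Irf4-/- control was from mice of the same genotype label that are labelled control. WT injected and WT control were from wild-type mice of the same 2 kinds. The injected libraries are those labelled treated, and the injection is the only treatment the protocol describes. The labels do not say what the control mice received. They give neither the strain, nor the age of the mice, nor the number of mice behind a library, nor the part of Irf4 that was deleted, and the deletion is not stated to be limited to NK cells.

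Each ribosome has a small subunit, which reads the messenger RNA, and a large subunit, which forms the peptide bond, and most subunit proteins are needed in one copy per ribosome. Their messenger RNAs begin with a C followed by a run of pyrimidines, the terminal oligopyrimidine (TOP) tract, through which translation of the whole set is raised or held back by the growth-sensing kinase complex mTORC1. In lymphocytes, activation and growth are accompanied by production of more ribosomes.

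Total counts were 18639455 in Irf4-/- injected, 15878159 in Irf4-/- control, 18640811 in WT injected and 21104881 in WT control, and between 17678 and 18684 genes had a count. Irf4 itself had 236, 188, 57 and 93 counts in the same order, so the libraries labelled Irf4-/- held more Irf4 reads than the WT libraries. Every genotype direction is therefore that of the libraries labelled Irf4-/-, which are called by their labels throughout. WT injected stood apart: it had the fewest genes with a count and was either the highest or the lowest library for more genes than any other, being highest for 33.8% and lowest for 33.2% of the 11998 genes tested. The 6 NK cell markers were all detected and summed to 10280, 10440, 8253 and 9197 CPM. Gzma made the largest part, and Gzma, Prf1, Nkg7 and Ncr1 were each lowest in WT injected. Klrb1c was highest there, at 1203, 1086, 1420 and 1183 CPM, and Eomes was highest in WT control. CPM is a count divided by the library's summed counts over the genes tested, set to the same total in every library. It is scaled with TMM (trimmed mean of M values), whose factors lay between 0.9949 and 1.002. With 1 library a group, a ratio of 2 libraries says nothing of how mice of a group vary. Its 95% interval is an exact counting interval, which takes reads as independent molecules and covers counting error only.

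The subunit genes were among the most abundant transcripts of these cells, and their levels per gene length spread widely. FPKM, a count divided by library total and gene length, averaged over the 4 libraries, had a median of 640 over the 73 subunit genes, with a median of 570 for the large and 776 for the small subunit. Rps27, a zinc-finger protein of the small subunit (ENSMUSG00000090733, chromosome 3, 90212522 to 90213651 in GRCm38), had the highest level, with 3130 FPKM in Irf4-/- injected, 2695 in Irf4-/- control, 4271 in WT injected and 3192 in WT control. Rps14, Rpl13a and Rps16 were also high, at 1712, 1643 and 1416 FPKM on average, and were followed by Rpl32, Rps15, Rpl10, Rpl8 and Rps3a1 between 1251 and 1158. The order of neighbours in that run is not fixed by these data, because the 4 values of 1 gene spanned more than the step to the next gene, as for Rpl13a with 1395 to 2162 FPKM.

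At the other end 3 large subunit genes lay far under the rest. Rpl24 had 19, 30, 17 and 24 counts in Irf4-/- injected, Irf4-/- control, WT injected and WT control, a mean of 1.83 FPKM. Rpl35 and Rpl23a averaged 31.6 and 32.5 FPKM, against 106 FPKM for Rps20, the next gene up. These 3 genes also had the largest shares of annotated exon bases that lie in another gene. The share was 66.2% for Rpl35, mostly with Wdr38 on the opposite strand, 59.7% for Rpl23a with Tlcd1 on the opposite strand and 47.0% for Rpl24 with Gm28037 on the same strand. How the counting treated overlapping genes is not given in the sources used here, and its part in these low values was not tested. Their levels are therefore uncertain.

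**Figure D1:**
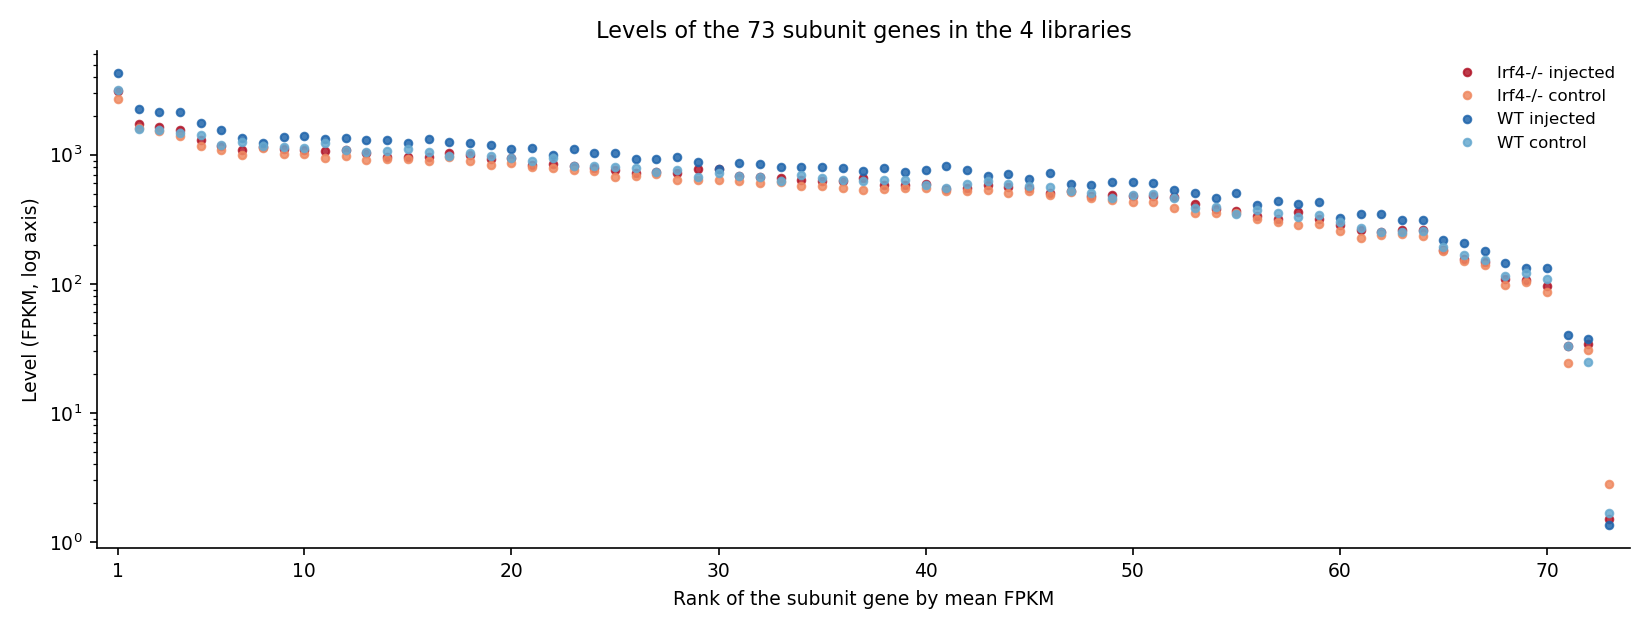
Level of each of the 73 subunit genes (FPKM, log axis) in the 4 libraries, with genes ranked from the highest to the lowest mean on the horizontal axis. WT injected is the highest library for nearly all genes, though not for Rpl24, and is level with Irf4-/- injected for Rpl41. Rpl23a, Rpl35 and Rpl24 lie apart at the low end.

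The starts of the genes are shown because the TOP tract is what this family is known to share. In RefSeq windows of 250 bases before to 50 bases from the annotated start (assembly GRCm38.p6), 63 of the 88 genes had an entry, 54 of them subunit genes. The letters run 5′ to 3′ on the gene's strand, from 30 bases before the start to 20 bases from it, and capitals mark each tract, a C followed by at least 4 bases that are each C or T, that opens within 10 bases of the annotated start. Rps27 is shown as the most abundant gene, Rpl12, Rpl13a and Rpl31 as genes with large ratios between libraries, Rps6 for its link to mTORC1, Rpl41 as the gene that differed least between injected genotypes, and Rps27rt and Rpl36al as paralogues.
Rps27, chromosome 3, 90213629 to 90213678, minus strand: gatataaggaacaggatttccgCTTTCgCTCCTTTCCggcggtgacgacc
Rps27rt, chromosome 9, 114982720 to 114982769, minus strand: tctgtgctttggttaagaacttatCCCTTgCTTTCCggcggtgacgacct
Rps6, chromosome 4, 86857348 to 86857397, minus strand: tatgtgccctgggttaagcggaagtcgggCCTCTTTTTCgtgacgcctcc
Rpl12, chromosome 2, 32961682 to 32961731, plus strand: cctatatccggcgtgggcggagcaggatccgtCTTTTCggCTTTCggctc
Rpl13a, chromosome 7, 45128726 to 45128775, minus strand: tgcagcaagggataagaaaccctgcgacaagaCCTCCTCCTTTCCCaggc
Rpl31, chromosome 1, 39367821 to 39367870, plus strand: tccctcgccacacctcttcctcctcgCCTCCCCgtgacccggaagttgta
Rpl41, chromosome 10, 128549149 to 128549198, minus strand: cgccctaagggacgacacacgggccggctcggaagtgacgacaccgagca
Rpl36al, chromosome 12, 69184048 to 69184097, minus strand: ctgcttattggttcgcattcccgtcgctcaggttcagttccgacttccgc

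The annotated start was a C followed by at least 4 bases that are each C or T, whether a tract opened there or a few bases before, in 12 of the 54 subunit genes (22.2%), against 3.01% of all 27025 genes of the RefSeq table. A tract opened within 10 bases of it in 32 of the 54 (59.3%), against 32.6% of all genes. The start of Rps27rt opens its tract, those of Rps27 and Rps6 lie just inside theirs, and neither Rpl41 nor Rpl36al has one in the 10 bases either side. These counts depend on the start used. For Rpl41 the RefSeq start is at 128549168, while the GENCODE gene begins at 128549305 on the same strand. A tract missing here therefore does not show that the transcript lacks one. In the whole window on either strand, CCGGAAG, the core bound by the ETS factor GABPA, was found in 22 of the 54 subunit genes (40.7%), against 9.93% of all genes. GGGCGG, bound by SP1, was found in 32 of 54 (59.3%), against 38.2%. AAGATGGC, bound by YY1, was found in 5 of 54 (9.26%), against 3.19%, and TATAAA, the TATA box, in 5 of 54 (9.26%), against 15.7%. The reverse complement of the GABPA letters begins with letters that can themselves form a pyrimidine tract, so those 2 counts can overlap. Genes holding both were not counted. These are matches of letters, not measured binding.

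In mice given B16-F10 cells, ribosomal protein transcripts were lower in Irf4-/- injected than in WT injected, almost without exception and by a similar amount for both subunits. All 72 subunit genes that averaged 5 CPM or more had a log2 ratio under 0, with a median of -0.34, against -0.001 for all other genes at that level. The large subunit had a median of -0.32 and the small subunit of -0.37. In bulk samples fewer cells of a type and less RNA per cell cannot be told apart. By the rule of size used for pairs of libraries (the higher library at least 25% above the lower, with the counting interval excluding no change), 44 of 78 genes were lower and 1 was higher, against 10.6% lower and 11.8% higher among the 9689 genes with enough counts. A difference of 25% corresponds to a log2 ratio close to the median, so this count depends on it, and at 1.5-fold 1 gene was lower.

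Rpl12, a protein at the base of the large subunit's stalk (ENSMUSG00000038900, chromosome 2, 32961559 to 32965345 in GRCm38), had the largest ratio of that pair. It was at 677 CPM in Irf4-/- injected, 655 in Irf4-/- control, 1026 in WT injected and 682 in WT control, a log2 ratio between injected genotypes of -0.60 (-0.63 to -0.57). Only WT injected was high, and the other 3 libraries lay within 27 CPM of each other. Rpl26 followed, with 333 CPM in Irf4-/- injected and 477 in WT injected (-0.52), then Rpl13a with 2295 and 3215 CPM (-0.49) and Rps25 with 376 and 525 CPM (-0.48). Rpl13a is known in addition for holding back translation of inflammatory transcripts after interferon-gamma. Rpl31, Rpl17 and Rpl5 were all at -0.47. Annotated exon bases that lie in other genes made up 29.4% for Rpl13a, 25.3% for Rpl31, 24.8% for Rps25 and 24.3% for Rpl5. The part of this overlap in their ratios was not tested.

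Rpl41, which encodes the shortest protein of the ribosome, differed least. It had 536 CPM in Irf4-/- injected, 445 in Irf4-/- control, 539 in WT injected and 498 in WT control, so that the 2 injected libraries were level, with a log2 ratio of -0.01 (-0.05 to 0.03). Rpl10, which joins the large subunit late in its assembly, was at 1076 and 1152 CPM (-0.10, -0.13 to -0.07). The 3 genes above 0 in this pair, Rps27l, Rpl7l1 and Rpl36al, were all paralogues.

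In the control libraries the same direction was seen at a smaller size. Of the 72 subunit genes 69 were lower in Irf4-/- control than in WT control, with a median log2 ratio of -0.19, against -0.004 for all other genes. The rule of size found 3 of 78 genes lower and 2 higher, against 3.59% lower and 5.71% higher among 9661 genes, so neither count stood out from the table as a whole. Rps12, a small subunit protein, had 513 CPM in Irf4-/- injected, 451 in Irf4-/- control, 632 in WT injected and 591 in WT control, a ratio between controls of -0.39 (-0.43 to -0.35). Its 2 libraries labelled Irf4-/- both lay under both WT libraries. Rps20 was at 319 CPM in Irf4-/- control and 406 in WT control (-0.35), and Rpl23a at 14.4 and 19.4 CPM (-0.43, -0.67 to -0.19). Rpl31 at 0.03 and Rpl35 at 0.29 (0.10 to 0.48) were above 0, and Rpl35 is one of the genes with uncertain levels.

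In WT mice, ribosomal protein transcripts were higher in WT injected than in WT control. All 72 subunit genes had a log2 ratio above 0, with a median of 0.32 and quartiles of 0.24 and 0.37, against -0.01 for all other genes. By size 39 of 78 genes were higher and 1 was lower, against 12.9% higher and 12.7% lower among 9637 genes, and at 1.5-fold 2 genes were higher. Rpl12 (0.59), Rpl35 (0.58), Rpl13a (0.58) and Rpl31 (0.56) had the largest ratios of subunit genes, and Rpl10 (0.09), with Rpl10a, Rps12 and Rps26 (0.10 each), the smallest. Rpl31 was at 461 CPM in Irf4-/- injected, 443 in Irf4-/- control, 640 in WT injected and 434 in WT control, so again only WT injected was high. This pair and the pair of injected genotypes share the library WT injected, and the 2 sets of ratios are not independent of each other.

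In mice labelled Irf4-/- the same contrast gave a smaller difference. All 72 subunit genes were higher in Irf4-/- injected than in Irf4-/- control, with a median log2 ratio of 0.13 and quartiles of 0.08 and 0.17, against -0.001 for all other genes. By size 2 of 78 genes were higher and 0 lower, against 5.85% higher and 5.54% lower among 9703 genes. These were Rps28, a short small subunit protein, and Rpl23a. Rps28 (ENSMUSG00000067288, chromosome 17, 33819027 to 33824562 in GRCm38) had 291 CPM in Irf4-/- injected, 230 in Irf4-/- control, 339 in WT injected and 265 in WT control, with ratios of 0.34 (0.28 to 0.40) in mice labelled Irf4-/- and 0.36 (0.30 to 0.41) in WT mice. Its injected libraries were both above its control libraries. Rpl38 (0.30), Rpl37, Rpl41 and Rps29 (0.27 each) came next. Rpl38 is known for its part in translation of Hox transcripts in the mouse embryo. Whether the response to injection differed between genotypes could not be tested with 1 library a group. Among these subunit genes, the log2 ratio in WT minus that in Irf4-/- was largest for Rpl12 (0.54), Rpl31 (0.50), Rpl13a (0.42) and Rpl35 (0.42), and was -0.16 for Rpl41 and 0.02 for Rps28.

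**Figure D2:**
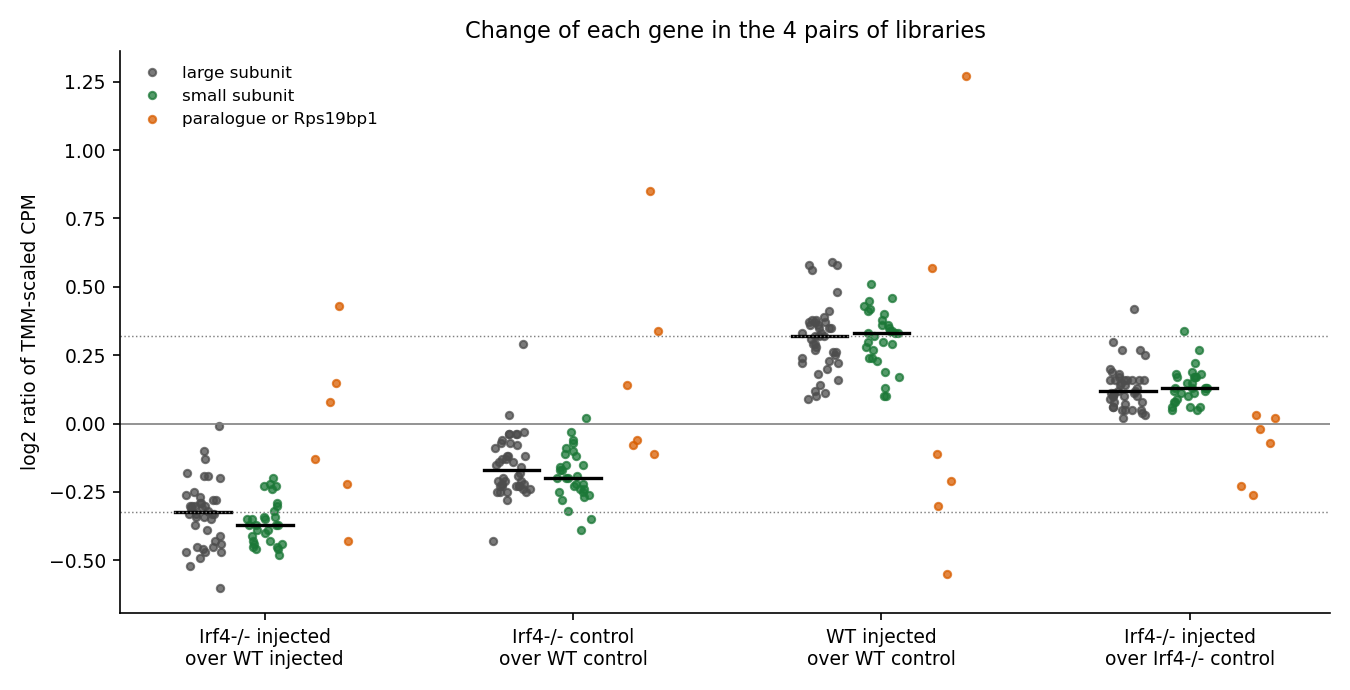
log2 ratio of TMM-scaled CPM for each gene that averaged 5 CPM or more, in the 4 pairs of libraries, with subunit genes in grey and green, their medians as bars and paralogues with Rps19bp1 in orange. Dotted lines mark a value 25% above the lower library. The subunit genes form tight groups under 0 for both genotype pairs and above 0 for both injection pairs, while the paralogues scatter on both sides.

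The only test this design allows fits genotype and injection as additive terms over the 4 libraries, with 1 residual degree of freedom. That degree of freedom is the departure from additivity, so a response to injection that differs between genotypes would count as error. In edgeR's quasi-likelihood test with Benjamini-Hochberg adjustment over 11998 genes, 0 of the 81 ribosomal protein genes with enough counts passed an adjusted p of 0.05 for genotype, against 1.22% of all genes higher and 0.258% lower. For injection 0 of 81 passed, against 0.333% of all genes higher and 0.392% lower. DESeq2 and limma-voom also called 0 for both terms, though in DESeq2 3 of the 81 genes had no adjusted p for injection. At an unadjusted p under 0.05, 35 of the 81 genes were lower with the genotype label and 0 higher, where all genes had 526 lower and 724 higher of 11998. For injection 20 were higher and 1 lower, where all genes had 879 higher and 821 lower. The fitted genotype change had a median of -0.26 over the 81 genes, against -0.001 over all genes, and the fitted injection change a median of 0.22, against 0.003.

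Rps20, a small subunit protein (ENSMUSG00000028234, chromosome 4, 3831334 to 3835665 in GRCm38), came nearest for genotype. It had 359 CPM in Irf4-/- injected, 319 in Irf4-/- control, 492 in WT injected and 406 in WT control, with both libraries labelled Irf4-/- under both WT libraries. The fitted log2 change was -0.40 (SE 0.108, edgeR's quasi-likelihood test, adjusted p = 0.147). Rpl36a (-0.35, adjusted p = 0.201) and Rps12 (-0.35, adjusted p = 0.251, edgeR) came next. For injection Rps28 came nearest, at 0.35 (SE 0.103, adjusted p = 0.163, edgeR), followed by Rps29 at 0.34 (adjusted p = 0.189) and Rpl39 at 0.32 (adjusted p = 0.196).

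The size of these changes depended on which libraries were in the fit. With 1 library left out the additive model has no residual degree of freedom, so genotype and injection were each fitted alone, and the estimates mix the terms where groups are then unbalanced. In these fits of 1 term the median genotype change over the members tested was -0.10 without WT injected and -0.41 without WT control, and the median injection change was 0.04 without WT injected and 0.40 without Irf4-/- injected. The ratios of pairs that do not use WT injected had medians of -0.17 between control libraries and 0.12 between libraries labelled Irf4-/-, over 78 genes. Those pairs share Irf4-/- control, the lowest library for 69 of the 73 subunit genes, so their medians are not independent of each other. Without WT control, 48 ribosomal protein genes were lower and 1 higher for genotype at an adjusted p of 0.05 (edgeR), where all 11868 genes had 478 lower and 526 higher. Without Irf4-/- injected, 17 were higher and 1 lower for injection, where all 11812 genes had 361 higher and 337 lower. In both of these fits WT injected was the only library of its arm and was taken to vary like the others. Without WT injected, 0 ribosomal protein genes were called for either term, where all 11812 genes had 154 higher and 23 lower for genotype and 6 higher and 8 lower for injection.

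In TMM-scaled CPM the subunit genes kept nearly 1 order of the 4 libraries. WT injected was highest for 72 of the 73, all but Rpl24, against 33.8% of all genes tested. Irf4-/- control was lowest for 69 of the 73, against 22.6% of all genes. Both libraries labelled Irf4-/- lay under both WT libraries for 49 of the 81 genes tested (60.5%), against 16.4% of all genes, and all 49 were subunit genes. Both injected libraries lay above both controls for 26 of 81 (32.1%), against 21.2% of all genes. No gene can be in both counts, since they need Irf4-/- injected on opposite sides of WT control. Of the 73 subunit genes, 49 were in the first and 23 in the second. Because WT injected was nearly always their highest library, leaving it out could change these counts little. Without it, both libraries labelled Irf4-/- were under WT control for 52 of the 81 genes (64.2%), against 34.1% of all genes. Irf4-/- injected was above both controls for 26 of 81 (32.1%), against 36.0% of all genes. For subunit genes both orders thus turn mainly on 1 pair of single libraries, Irf4-/- injected and WT control.

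The log2 ratios of the subunit genes lay closer together than those of other genes. Among genes that averaged 100 CPM or more, the SD of the log2 ratio of Irf4-/- injected over WT injected was 0.103 over 70 subunit genes and 0.267 over 2397 other genes. For Irf4-/- control over WT control the SDs were 0.087 and 0.142, for WT injected over WT control 0.113 and 0.277, and for Irf4-/- injected over Irf4-/- control 0.067 and 0.166. The groups share only this minimum and were not matched on level, genes are not replicates, and no test is given. The balance of the subunits was nearly constant, with 1.31, 1.32, 1.29 and 1.29 large subunit counts for each small subunit count in Irf4-/- injected, Irf4-/- control, WT injected and WT control.

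As a share of all counts, the 88 genes held 4.63% in Irf4-/- injected (exact binomial 95% interval 4.62% to 4.64%), 4.25% in Irf4-/- control (4.24% to 4.26%), 5.90% in WT injected (5.88% to 5.91%) and 4.75% in WT control (4.74% to 4.76%). This share needs no scaling between libraries and gives the same order. Transcripts encoded in the mitochondrial genome followed WT injected as well, with 0.976%, 0.962%, 1.14% and 0.905% of counts in the same order of libraries, and their part in the result was not tested. The 77 genes for proteins of the mitochondrial ribosome, which are encoded in the nucleus, held 0.207%, 0.201%, 0.204% and 0.202%, nearly level.

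**Figure D3:**
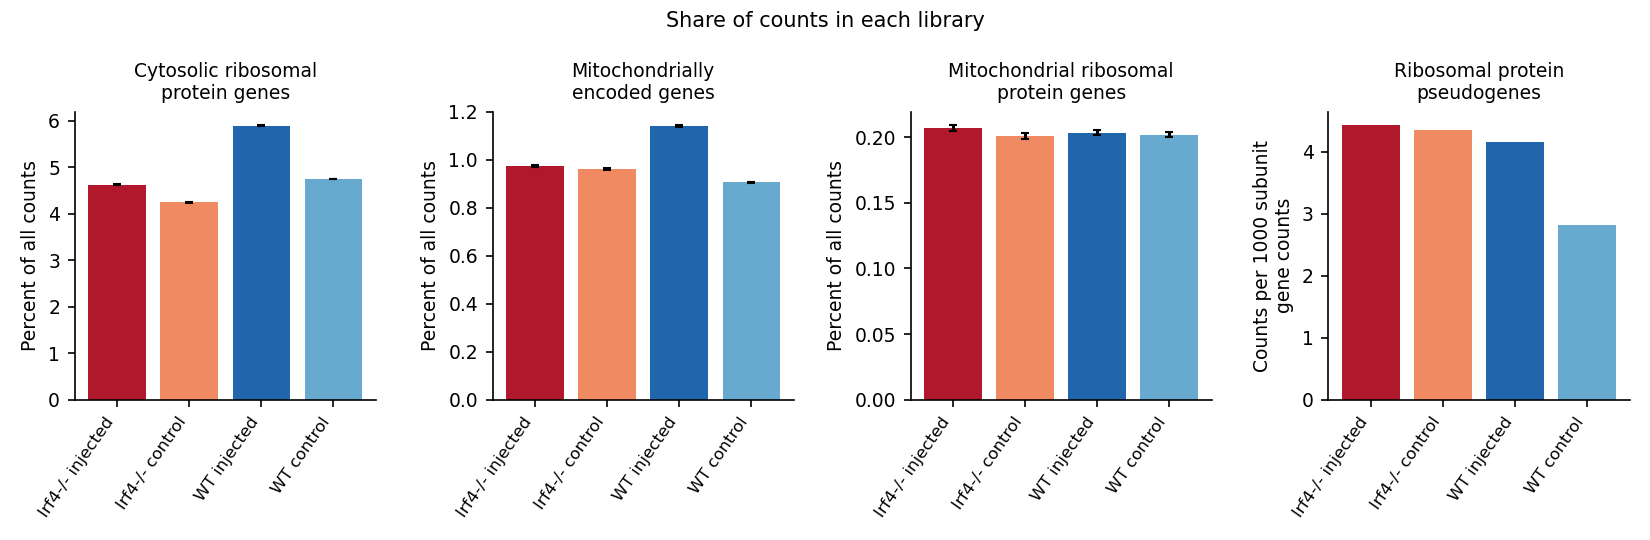
Percent of all counts in the cytosolic ribosomal protein genes, the mitochondrially encoded genes and the mitochondrial ribosomal protein genes, with exact binomial 95% intervals, and counts of annotated ribosomal protein pseudogenes for each 1000 counts of subunit genes. WT injected is highest in the first 2 panels, the third is nearly level, and WT control is lowest in the last at 2.82.

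Several subunit proteins have known roles outside the ribosome. Of those described above, Rpl13a and Rpl38 were among the larger ratios of a pair. Rpl13a was at -0.49 between injected genotypes, where the subunit genes had a median of -0.34. Rpl38 was at 0.30 between libraries labelled Irf4-/-, where the median was 0.13. Rpl5 and Rpl11, which restrain Mdm2 when ribosome assembly fails, were at 648 and 602 CPM in Irf4-/- injected, 614 and 560 in Irf4-/- control, 896 and 742 in WT injected, and 720 and 578 in WT control. Rps6, the substrate of kinases downstream of mTORC1, had 674, 618, 871 and 656 CPM in the same order of libraries, and ratios of -0.37 and -0.09 between genotypes. Rps19, which is mutated in human Diamond-Blackfan anaemia, had 414, 397, 558 and 440 CPM, and ratios of -0.43 and -0.15. Rps27a, made as a fusion with ubiquitin, had 454, 415, 578 and 431 CPM. In each of these genes WT injected was highest, and Irf4-/- control was lowest. The same held for 72 and 69 of the 73 subunit genes, so this order does not set them apart.

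The paralogues did not follow the subunit genes as a group. They are copies with amino acid changes or retrotransposed copies, and 5 of the 8 had enough counts to be tested. None passed the test for either term. Rps27l, a paralogue of Rps27 that p53 induces (ENSMUSG00000036781, chromosome 9, 66946086 to 66949516 in GRCm38), ran opposite to Rps27. Rps27l had 34.2 CPM in Irf4-/- injected, 40.9 in Irf4-/- control, 25.3 in WT injected and 37.1 in WT control, while Rps27 had 799, 687, 1096 and 813. WT injected was thus the lowest library for Rps27l and the highest for Rps27. Its log2 ratio was 0.43 (0.26 to 0.61) between injected genotypes and -0.55 (-0.72 to -0.38) between WT injected and WT control, and the fitted injection change was -0.40 (SE 0.131, edgeR, adjusted p = 0.201). Of 10 other p53 pathway genes, Cdkn1a had 5.43, 6.55, 3.29 and 5.87 CPM and Bbc3 70.5, 59.7, 131 and 70.3 CPM in the same order of libraries, so they did not share 1 direction, and 0 of 9 tested passed.

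Rpl22, which is known to be needed for development of αβ T cells in the mouse, and its paralogue Rpl22l1 are also set side by side. Rpl22 had 220 CPM in Irf4-/- injected, 210 in Irf4-/- control, 276 in WT injected and 246 in WT control. Rpl22l1 had 82.9, 82.0, 96.3 and 64.9 CPM, so WT control was lowest rather than Irf4-/- control, and the genotype ratio was -0.22 (-0.31 to -0.12) between injected libraries and 0.34 (0.23 to 0.45) between controls. Rps27rt, a retrotransposed copy of Rps27, had 10.3, 10.5, 13.9 and 5.73 CPM, and genotype ratios of -0.43 (-0.71 to -0.16) and 0.85 (0.52 to 1.22). Beginning inside the tract of Rps27 and at the start of Rps27rt, both share a run of 38 bases, the longest the 2 windows have in common. Reads of such copies cannot be assigned with certainty, since the treatment of reads with several matches is not given in the sources used here.

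Rpl36al, encoded by an intronless copy, was flat at 132, 129, 125 and 134 CPM, while Rpl36a had 211, 184, 285 and 219 CPM. Rpl7l1, a protein of ribosome assembly, had 68.2, 71.6, 61.6 and 75.8 CPM, and Rpl7 had 762, 736, 943 and 799 CPM. Rps19bp1 had 13.1, 15.4, 14.3 and 16.6 CPM, with both controls above both injected libraries. Its injection ratios were -0.21 (-0.45 to 0.02) in WT and -0.23 (-0.49 to 0.03) in mice labelled Irf4-/-, so both counting intervals included 0. Rpl3l, a muscle form of Rpl3, Rpl10l, a testis form of Rpl10, and Rpl39l, a testis form of Rpl39, were at or near 0. Rpl10l was listed at 0 in all 4 libraries, which allows up to 0.142 to 0.189 CPM by 3 counts. Rpl3l had counts in WT injected only, at 0.270 CPM, and Rpl39l was at 0.537 CPM or less.

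**Figure D4:**
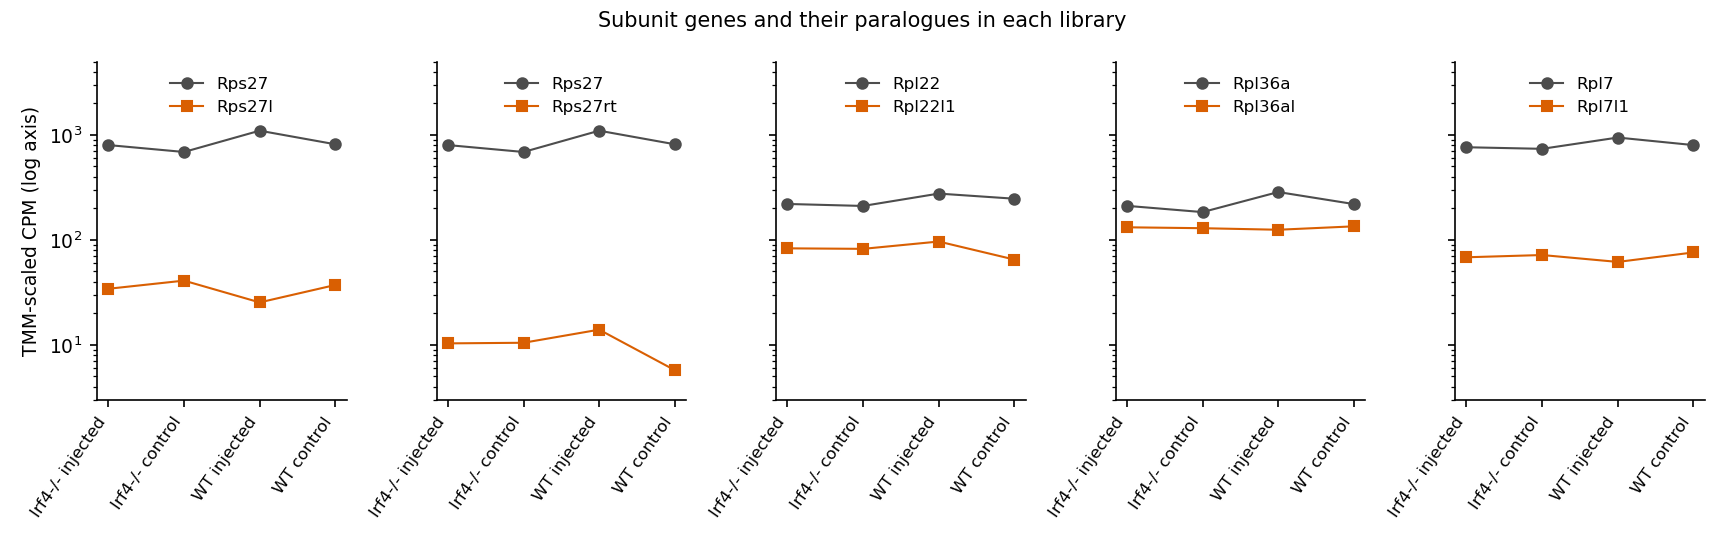
TMM-scaled CPM (log axis) of 4 subunit genes and 5 paralogues in the 4 libraries; lines only join the values of 1 gene. WT injected is the highest library for each subunit gene, the lowest for Rps27l, Rpl36al and Rpl7l1, and the highest for Rps27rt and Rpl22l1.

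Ribosomal proteins have many processed pseudogenes, and the table held 239 annotated ones, 100 of them with no count in any library. Together they had 4.43 counts for each 1000 counts of subunit genes in Irf4-/- injected, 4.35 in Irf4-/- control, 4.16 in WT injected and 2.82 in WT control. WT control was therefore the library apart by this measure. Of the 6 genes with pseudogene names among the 88, Rpl36-ps4 was listed at 0 in all libraries, 2 were tested and 0 passed, and the highest level was 3.46 CPM for Rps12-ps3 in WT injected. Whether reads moved between genes and pseudogenes was not tested.

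Beside the 88 genes stand 6 ribosomal proteins whose symbols the rule does not take in, and their medians took the same directions. Rpsa, a small subunit protein, had 1290 CPM in Irf4-/- injected, 1223 in Irf4-/- control, 1764 in WT injected and 1337 in WT control. Fau, whose product is cleaved to a small subunit protein, had 768, 659, 1006 and 768 CPM, and the stalk proteins Rplp0, Rplp1 and Rplp2 had genotype ratios of -0.26, -0.26 and -0.24 between injected libraries. The list had median ratios of -0.26, -0.17, 0.23 and 0.14 for Irf4-/- injected over WT injected, Irf4-/- control over WT control, WT injected over WT control and Irf4-/- injected over Irf4-/- control, and 0 of 6 passed the test for either term.

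Translation factors and other TOP transcripts, 20 genes, took the same directions at smaller size. Their medians were -0.19, -0.04, 0.16 and 0.07 in the same order of pairs, and 0 of 20 passed for either term. The elongation factor Eef1a1 had 6760, 6353, 8640 and 6809 CPM in Irf4-/- injected, Irf4-/- control, WT injected and WT control, and Eef2 had 3275, 2980, 4111 and 2960. Eif3e, a subunit of an initiation factor, had 188, 188, 274 and 176 CPM and the largest ratio of this list between injected genotypes, at -0.54. Eef1g was at 459, 437, 449 and 429 CPM, with a ratio of 0.03.

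The machinery that builds ribosomes had smaller medians, some in the direction of the subunit genes and some in the opposite one. Ribosome biogenesis genes, 28 in number, had medians of 0.05, -0.07, -0.15 and -0.03 in the 4 pairs. For genotype 1 of 28 passed, against 0.258% of all genes lower and 1.22% higher. This was Pes1, a factor of large subunit assembly, which fell by 0.53 on the log2 scale with the genotype label (edgeR's quasi-likelihood test, adjusted p = 0.043), with 39.2, 39.0, 57.8 and 54.9 CPM. Nucleolin (Ncl) had 511, 521, 615 and 532 CPM, and Nop56, a core protein of the particles that methylate ribosomal RNA, had 101, 124, 104 and 130. The 11 genes of RNA polymerase I and its factors had medians of 0.02, -0.09, -0.11 and 0.02, and 0 passed. Genes of mTORC1 and of the control of TOP transcripts, 20 in number, had medians of 0.07, 0.04, -0.03 and -0.01, and 0 passed. Larp1, which binds TOP tracts, was at 237, 230, 228 and 224 CPM, and Myc, a transcription factor that drives ribosome production, at 66.3, 53.7, 74.9 and 62.0. The 6 chaperones of ribosomal proteins, of which Pdcd2 was listed at 0, had medians of -0.04, 0.02, -0.04 and 0.10, and 0 of 5 passed. For the mitochondrial ribosome the medians were 0.06, -0.01, -0.03 and 0.06, and 0 of 76 passed. A difference between these lists and the subunit genes was not tested.

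**Figure D5:**
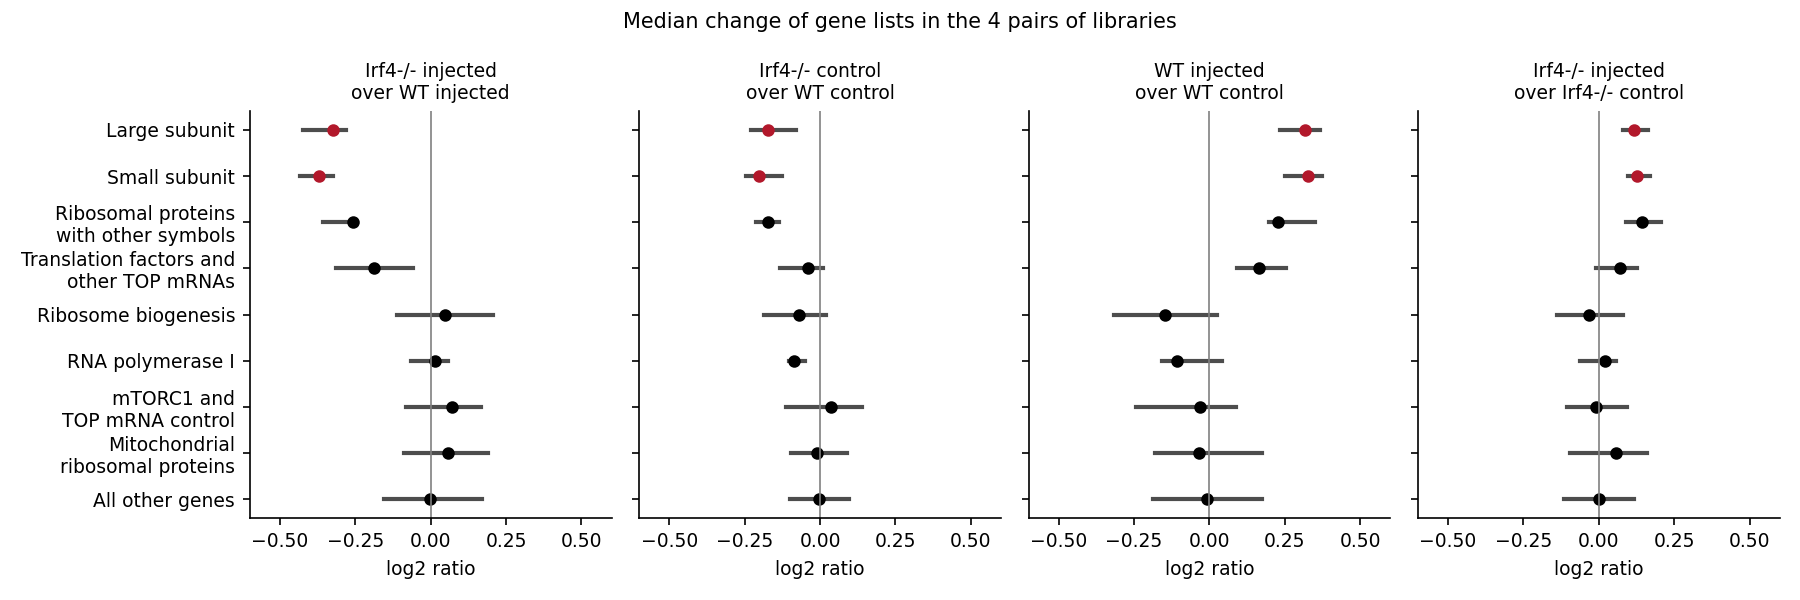
Median log2 ratio (points) and quartiles (lines) of gene lists in the 4 pairs of libraries, over genes that averaged 5 CPM or more. The large and small subunit (red) lie at -0.32 and -0.37 for Irf4-/- injected over WT injected and at 0.32 and 0.33 for WT injected over WT control, and the ribosome biogenesis list lies at 0.05 and -0.15.

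Markers of other cells were low, and the summed level of each list was small beside the subunit genes. The 5 B cell markers summed to 115 CPM in Irf4-/- injected, 129 in Irf4-/- control, 69.0 in WT injected and 102 in WT control, with Cd74, which rose by 0.55 with the genotype label (edgeR, adjusted p = 0.028), making most of it. The 5 T cell markers summed to 44.6, 42.5, 40.3 and 48.1 CPM, and the 5 erythroid markers to 109, 44.1, 18.0 and 37.0. The 6 monocyte and macrophage markers summed to 49.3, 43.7, 59.5 and 27.9 CPM. Among them Vcam1 rose with injection, at 12.9, 5.10, 19.1 and 3.03 CPM (edgeR, adjusted p = 0.0172), and Lyz2 fell by 1.26 on the log2 scale (adjusted p = 0.0198). The 4 platelet markers summed to 6.88, 6.92, 9.78 and 6.39 CPM, the 4 plasma cell markers to 84.6, 91.7, 71.5 and 94.7, nearly all of it Xbp1, and the 4 neutrophil markers to at most 0.540, with Ly6g and Mpo at 0. The monocyte, platelet and neutrophil lists were highest in WT injected, as the subunit genes were, and their part in the result was not tested.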

How the data were processed

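RNA of sorted splenic NK cells was made into 4 libraries, 1 a group, with a SMARTER mRNA kit, per the labels' protocols. The authors deposited raw counts, whole numbers for every gene. Their deposited FPKM values equal that count over the library total and 1 length per gene. Per the submitters' processing notes, TopHat, edgeR and mm10 were used; which counter, annotation or strand setting was used is not stated there. Symbols come from GENCODE for GRCm38 (34490 of 35275 identifiers matched). The 88 genes and the gene lists were chosen with earlier results of these data known.

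Counts were filtered (at least 1 CPM in at least 2 libraries), scaled by TMM and fitted in edgeR 4.0.16 on R 4.3.3 with additive terms (glmQLFit and glmQLFTest, two-sided, common dispersion 0.00996, prior degrees of freedom 9.62). The steps were tested on simulated data. TMM over all genes before filtering was run first and changed to the usual order after its calls had been seen; it is kept as an alternative. Standard errors are the log2 change over the square root of F. Nothing says how many animals each library holds. The error behind the p-values of the additive fit is the departure of these libraries from additive terms, moderated across genes. It is not a spread between libraries of 1 group. Technical spread and a response to injection that differs between genotypes cannot be told apart in it. Ratios of 2 libraries use a prior count of 2 and a minimum mean of 5 CPM. Named genes are Irf4, the most and least abundant members, the largest ratios of each pair, members past the test (none did) and paralogue pairs. Also named are members with known other roles, Rps19bp1, and up to 4 genes of each list, largest change first. Rpl37, Rps26, Eef1a1, Eef1g, Larp1, Ncl, Nop56, Rplp0, Pdcd2, Rpl36-ps4, Cd74, Klrb1c and Eomes were chosen after their values were seen. Other runs used scaling by upper quartile, by median of ratios or by total, other filters, DESeq2 1.42.0, limma-voom (limma 3.58.1) and leaving out each library. Results of some genes are not reported here by name.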

Additional observations from a re-analysis of the deposited data

Results flagged for a closer look

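Rpl22l1 and Rps27rt had genotype ratios of opposite sign in the injected and the control pair, with both counting intervals off 0. The genotype log2 ratio of the injected pair minus that of the control pair was -0.55 for Rpl22l1 and -1.29 for Rps27rt. With 1 library a group this difference was not tested. In both genes WT control was the lowest of the 4 libraries.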

How the results depend on the processing

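The medians over all ribosomal protein genes, in the additive fit and the 4 pairs, kept their direction under each alternative run on them; medians of the other lists were not rerun. For genotype the 81 genes gave 0 calls with edgeR. They gave 3 (Rps20, Rps16 and Rpl26, lower) with no filter, 1 (Rps20) with a mean of at least 100 CPM, and 2 (Rps20 and Rpl36a) with TMM over all genes before the filter, the order run first; the order reported was adopted after those calls were seen. For injection they gave 1 (Rpl13a) with no filter and 1 (Rps28) with at least 100 CPM. Over all genes, 146 higher and 31 lower genotype calls and 40 and 47 injection calls became 299 and 146, and 299 and 292, with TMM before the filter, and 319 and 163, and 305 and 299, with no filter. Total-count scaling gave 197 and 53, and 120 and 147. For injection, upper-quartile scaling gave 113 and 100, and TMM computed without the 88 genes 89 and 92. Without WT control there were 526 and 478 genotype calls and 0 and 0 for injection; without Irf4-/- injected there were 0 and 0 for genotype and 361 and 337 for injection. A mean of at least 100 CPM gave 63 and 28, and 69 and 55. The cause was not tested, but these filters change the number of genes tested. Leaving out each library, with 1 term per fit, gave 0 to 49 genotype calls and medians of -0.408 to -0.099, and 0 to 18 injection calls and medians of 0.040 to 0.401. Without mitochondrially encoded genes in the total the shares were 4.677% in Irf4-/- injected, 4.295% in Irf4-/- control, 5.964% in WT injected and 4.793% in WT control. By size, 45, 5, 40 and 2 genes at least 25% apart became 1, 1, 2 and 0 at 1.5-fold and 0, 0, 1 and 0 at 2-fold in the 4 pairs, in the order of the text. A minimum of 100 CPM left 2 genes in the pair of controls and 1 in the pair labelled Irf4-/-, where a minimum of 1 CPM gave 4. No paired analysis was possible because each group has 1 library. Depth limits only the low genes, such as Rpl24 with 17 to 30 counts.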
